A study of Mus musculus with 240 samples.

Results

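Imprinted genes that are strong in growing mice were followed across 6 tissues, 2 ages, 2 strains and lean or ob animals. The group was named by gene: Igf2, H19, Dlk1, Mest, Plagl1, Peg3, Cdkn1c, Grb10, Peg10 and Ndn. A probe was taken for a member when its annotated symbol, or a synonym of it, was the member's name, and the probes of a gene were averaged. Of the 10 named genes, 9 had a probe (14 probes in all) among the 19896 genes that could be named on the array, and H19 was not analysed here.

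An imprinted gene is read from only 1 of its parental copies in many tissues, and the choice is set in the germ line by DNA methylation. Many imprinted genes govern growth before and shortly after birth, and as a class they are turned down as a young mammal stops growing. Igf2 is a secreted growth factor, Dlk1 a surface protein that holds precursor cells of fat and muscle back from maturing, and Plagl1 and Peg3 are zinc finger proteins that act on other genes. Cdkn1c, an inhibitor of cyclin-dependent kinases, and Grb10, an adaptor that dampens signals from the insulin and IGF receptors, restrain growth. The arrays measured total RNA of a gene and not its parental copies.

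Each of 240 two-colour arrays set the RNA of 1 tissue of 1 male mouse against a pool of the same strain and tissue. The tissues were pancreatic islets, liver, gonadal adipose tissue, gastrocnemius muscle, soleus muscle and hypothalamus, with 5 mice in each of 48 groups. Mice were of the strains B6 (C57BL/6) or BTBR, lean or ob, and 4 or 10 weeks old, and 36 of the 43 mice gave all 6 tissues. The ob label stands for the leptin mutation of the obese mouse, so that obesity and the lack of leptin cannot be told apart, and whether lean mice carried 1 copy of the mutation is not given in the sources used here.

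Values are log2 ratios of a mouse to its pool. The pool is the same for every array of a strain and tissue and drops out of differences within them, so that ages and lean or ob mice were compared within a strain, and levels of different strains, tissues or genes were not. For the same reason the tissues could not be checked by their markers. The pool was made from 20 mice of the strain (19 for BTBR liver), and that of BTBR adipose tissue carries the name BTBRob. The direction of the ratio, mouse over pool, is likely but not stated: the array titles give the pool first, in the channel of the dye Cy3, and in 11 of the 12 pools most of the 200 most variable probes lay below 0. With the sign turned, every rise below would read as a fall. In whole tissue, fewer cells of a type and less RNA per cell cannot be told apart. On 3 arrays the profile stood apart from the other 4 of its group (mean r over genes of -0.068 to -0.003): hypothalamus of B6 lean mouse 34, adipose tissue of BTBR lean mouse 37 and soleus of BTBR lean mouse 36, all 4 weeks old. Of 218 calls for the 9 genes, 2 were lost without these arrays.

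The start sites of Dlk1, Igf2, Mest and Peg3, on which many of the results below turn, are shown as RefSeq gives them (GRCm38.p6), from 250 bases before the start to 50 after it. Capitals mark a GC box (GGGCGG, either strand) or an E-box (CANNTG), the letters that factors of the Sp family and muscle and growth regulators of the bHLH class are known to read. Where a gene has several starts, as Igf2 with 4 and Mest with 3, the start with the most CpG is shown.
Dlk1, chr12:109452573-109452872, plus strand: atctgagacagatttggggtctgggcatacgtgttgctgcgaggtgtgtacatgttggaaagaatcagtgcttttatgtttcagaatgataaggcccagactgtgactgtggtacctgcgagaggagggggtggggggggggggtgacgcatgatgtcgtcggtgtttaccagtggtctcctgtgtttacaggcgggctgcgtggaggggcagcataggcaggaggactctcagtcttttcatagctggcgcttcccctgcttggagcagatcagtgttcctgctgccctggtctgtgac
Igf2, chr7:142658755-142659054, minus strand: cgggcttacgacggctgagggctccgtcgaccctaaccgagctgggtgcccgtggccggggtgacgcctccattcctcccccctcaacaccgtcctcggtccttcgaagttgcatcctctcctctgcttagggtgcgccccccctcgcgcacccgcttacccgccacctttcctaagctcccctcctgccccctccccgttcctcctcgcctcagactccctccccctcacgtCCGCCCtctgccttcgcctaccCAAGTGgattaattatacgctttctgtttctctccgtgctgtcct
Mest, chr6:30737800-30738099, plus strand: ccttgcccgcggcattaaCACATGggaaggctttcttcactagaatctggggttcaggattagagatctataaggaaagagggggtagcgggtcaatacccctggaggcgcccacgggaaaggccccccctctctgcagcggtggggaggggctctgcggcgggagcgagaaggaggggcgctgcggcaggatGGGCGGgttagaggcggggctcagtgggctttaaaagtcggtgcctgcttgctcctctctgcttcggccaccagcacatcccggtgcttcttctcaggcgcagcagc
Peg3, chr7:6730370-6730669, minus strand: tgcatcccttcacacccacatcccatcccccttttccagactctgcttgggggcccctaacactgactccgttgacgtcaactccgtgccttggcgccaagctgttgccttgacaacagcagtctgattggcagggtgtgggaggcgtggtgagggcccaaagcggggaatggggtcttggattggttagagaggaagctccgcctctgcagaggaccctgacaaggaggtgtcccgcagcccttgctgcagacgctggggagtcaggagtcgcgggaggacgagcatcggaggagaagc
The windows hold 9 CpG for Dlk1, 24 for Igf2, 17 for Mest and 13 for Peg3, against a median of 7 over 32851 promoters. Igf2 and Mest each hold 1 GC box and 1 E-box, while neither motif lies in the windows of Dlk1 and Peg3. A GC box was found in 35.7% and an E-box in 72.3% of all promoters of that length, and in 8 and 7 of the 13 starts of the 7 members in the promoter table, which does not list Cdkn1c and Peg10. On this build the genes lie at chr7:142650768-142666816 (Igf2), chr7:143458339-143461059 (Cdkn1c), chr7:62348277-62349928 (Ndn), chr7:6703892-6730462 (Peg3), chr12:109452485-109463336 (Dlk1), chr6:30733506-30748466 (Mest), chr6:4747306-4760517 (Peg10), chr11:11930499-12037428 (Grb10) and chr10:13090832-13131694 (Plagl1). Igf2 and Cdkn1c share an imprinted region of distal chromosome 7.

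Between 4 and 10 weeks the imprinted genes fell, most of all in skeletal muscle. Over 6 tissues and 4 classes (each strain, lean or ob), 110 of 216 gene-by-class age effects were called lower and 5 higher at 10 weeks, where 11.1% of effects over all genes were lower and 11.3% higher. A call is an adjusted p of at most 0.05 (limma, Benjamini-Hochberg over all 19896 genes of a comparison). In gastrocnemius and soleus together, 55 of 72 effects were lower and 0 higher, against 13.4% lower and 15.0% higher over all genes. The other 4 tissues gave 55 of 144 lower and 5 higher, where the background was 10.0% lower and 9.48% higher. By tissue, of 36 effects each, 28 were lower in gastrocnemius (15.5% of effects over all genes), 27 in soleus (11.3%), 18 in islets (10.9%), 18 in adipose tissue (13.8%), 16 in liver (10.4%) and 3 in hypothalamus (5.01%). Higher calls numbered 0 in gastrocnemius, soleus and hypothalamus (17.7%, 12.2% and 3.68% over all genes), 1 in islets (10.2%), 2 in liver (11.0%) and 2 in adipose tissue (13.1%). In gastrocnemius 7, 5, 8 and 6 of the 9 members had no 10-week mouse as high as a 4-week mouse in B6 lean, B6 ob, BTBR lean and BTBR ob animals, and in soleus 7, 6, 7 and 6, where this held for 9.16% of gene-by-class pairs in these muscles. Grb10 was lower in 19 of its 24 classes, Ndn in 16, Igf2, Mest and Cdkn1c in 15 each, Dlk1 in 14, Peg3 in 12, Plagl1 in 4 and Peg10 in 0. Leaving out 1 mouse at a time, 18 of the 115 age calls were lost at least once.

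**Figure D1:**
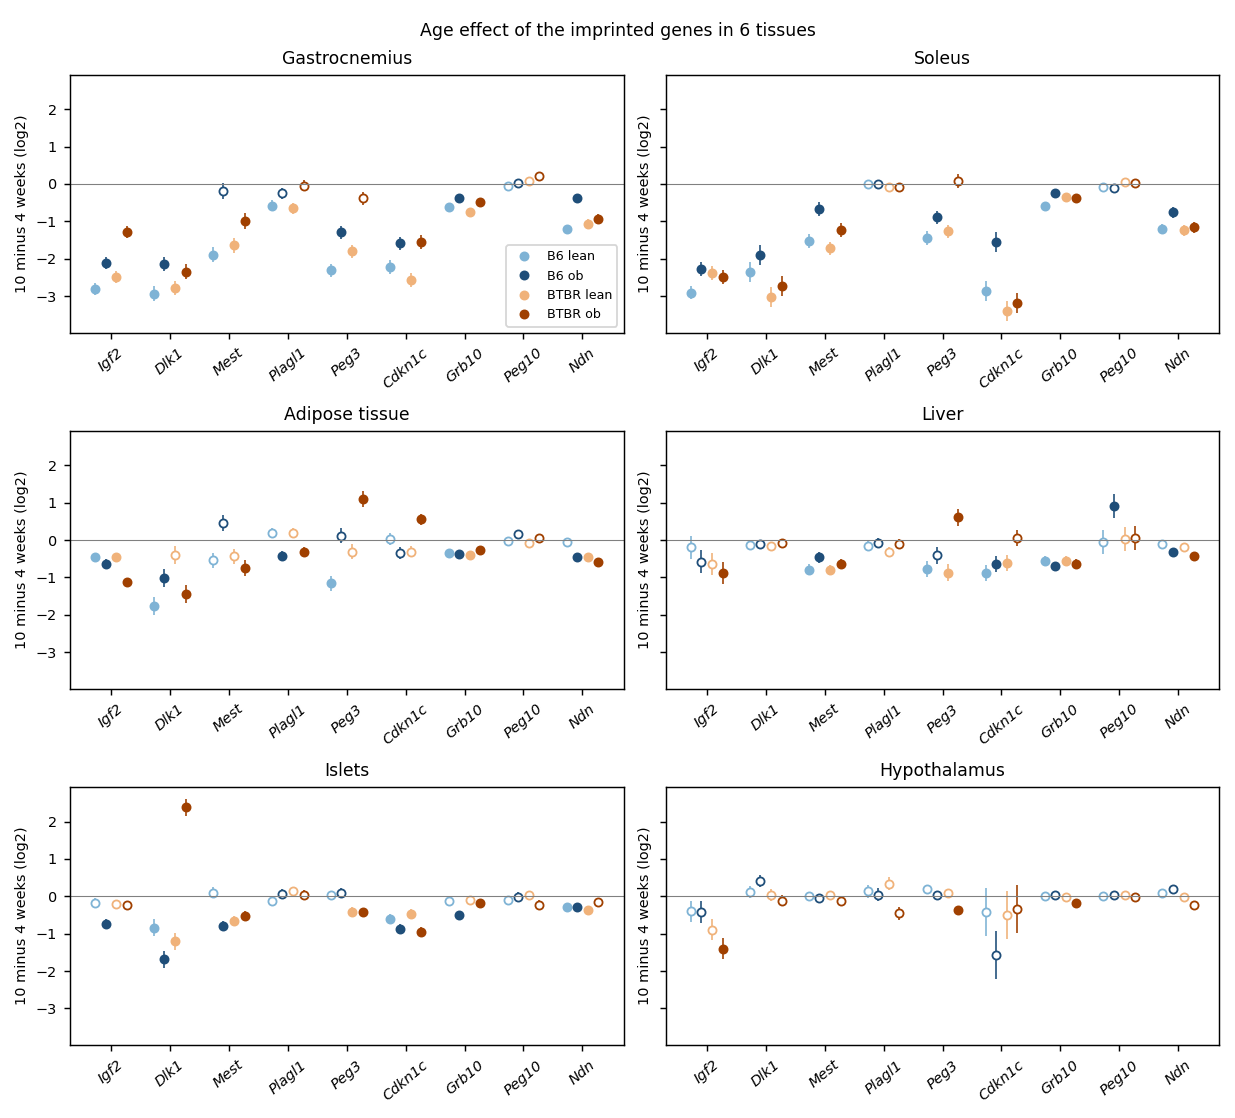
Age effects of the 9 imprinted genes (10 minus 4 weeks, log2, ± SE) in each tissue, with 1 point for each strain and lean or ob class of 5 against 5 mice; filled points were called at an adjusted p of 0.05 and open points were not. In both muscles the filled points lie below 0, and the only age effect above 2 is that of Dlk1 in islets of BTBR ob mice at 2.38.

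Igf2 fell in both muscles in all 4 classes, and no 4-week mouse overlapped a 10-week mouse. In gastrocnemius of B6 lean mice its log2 ratios were 1.38, 0.96, 1.02, 0.16 and -0.05 at 4 weeks and -2.10, -2.24, -2.07, -2.13 and -2.004 at 10 weeks. The 4-week mice were spread over more than a log2 unit, and the 10-week mice lay close together. The difference was -2.81 ± 0.16 (SE, n = 5 against 5; limma adjusted p = 1.1e-14), a 6.99-fold lower ratio. It was -2.11 ± 0.16 in B6 ob mice (limma adjusted p = 8.5e-11), -2.49 ± 0.16 in BTBR lean mice and -1.29 ± 0.16 in BTBR ob mice (limma adjusted p = 1.7e-07). In soleus, a slow postural muscle, the 4 differences were -2.91, -2.29, -2.39 and -2.49, each ± 0.18.

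Dlk1 followed the same course. In gastrocnemius of B6 lean mice its log2 ratios were 1.32, 1.18, 1.71, 0.05 and 0.05 at 4 weeks and -2.12, -2.13, -2.17, -2.10 and -1.83 at 10 weeks. Mice 34 and 31, the last 2 of the 4-week values, were also the lowest for Igf2, Mest, Peg3 and Ndn in this muscle. The age difference of Dlk1 was -2.93 ± 0.20 in B6 lean mice (limma adjusted p = 2.5e-13), and -2.15, -2.79 and -2.35 in B6 ob, BTBR lean and BTBR ob mice. In soleus it was -2.35, -1.90, -3.03 and -2.73 in the same order, each ± 0.27. The groups of 4 and 10 weeks did not overlap in any of these 8 comparisons.

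Cdkn1c, which blocks the cell cycle, fell with the growth factors. In soleus of BTBR lean mice its log2 ratios were 1.25, 1.28, 0.94, 0.90 and 0.97 at 4 weeks and -2.48, -2.29, -2.56, -1.94 and -2.39 at 10 weeks. All 4-week mice were above their pool and all 10-week mice below it. The difference of -3.40 ± 0.27 (limma adjusted p = 2.5e-11) was the largest age effect of any member in the muscles. The other classes of soleus gave -2.87 ± 0.27 (B6 lean), -1.55 ± 0.27 (B6 ob, limma adjusted p = 2.5e-04) and -3.19 ± 0.27 (BTBR ob). B6 ob mice were split at 4 weeks: mice 7 and 5 had log2 ratios of -0.71 and -0.79, and mice 14, 10 and 11 had 1.04, 0.97 and 0.95. The same mice 7 and 5 were lowest in gastrocnemius, at -0.59 and -0.36 beside 0.40 to 0.61 in the other 3. Cdkn1c fell in gastrocnemius by 2.22, 1.59, 2.58 and 1.56 on the log2 scale in the 4 classes, each ± 0.18.

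Grb10 and Ndn fell less. Ndn, a growth-restraining protein known from neurons and muscle precursors, changed by -1.22, -1.06 and -0.93 in gastrocnemius of B6 lean, BTBR lean and BTBR ob mice (each ± 0.13), and by -1.21, -0.76, -1.24 and -1.16 in the 4 classes of soleus (each ± 0.15). In gastrocnemius of B6 ob mice Ndn changed by -0.38 ± 0.13 (limma adjusted p = 0.025) with overlapping ages, and this call was lost without any 1 of 3 mice (-0.31 without 10-week mouse 9, limma adjusted p = 0.0928). Grb10 changed by -0.61, -0.39, -0.76 and -0.48 in gastrocnemius (each ± 0.07), with no overlap of the ages in any class. This mean hides its probes: probe 10018189292 of Grb10 gave -1.49, -0.76, -1.503 and -0.97, and probe 10028673998 gave 0.27, -0.01, -0.02 and 0.01, the first of these a call in the other direction. Plagl1 fell in gastrocnemius of lean mice alone among the muscle classes, by 0.58 in B6 and 0.65 in BTBR (each ± 0.15, limma adjusted p = 1.6e-03 and 6.4e-04), and the values of ob mice were -0.24 and -0.05. The difference between ob and lean age effects of Plagl1 did not pass (0.34 ± 0.21 in B6, limma adjusted p = 0.39, and 0.60 ± 0.21 in BTBR, limma adjusted p = 0.081). Peg10, a gene derived from a retrotransposon and needed in the placenta, had no age effect past the threshold in either muscle (-0.11 to 0.21). That mean also joins 2 probes that differ: over all 78 comparisons of the 6 tissues 1 probe was called in 3 and the other in 19. The calls of these Peg10 probes differed in 21 of the 78.

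**Figure D2:**
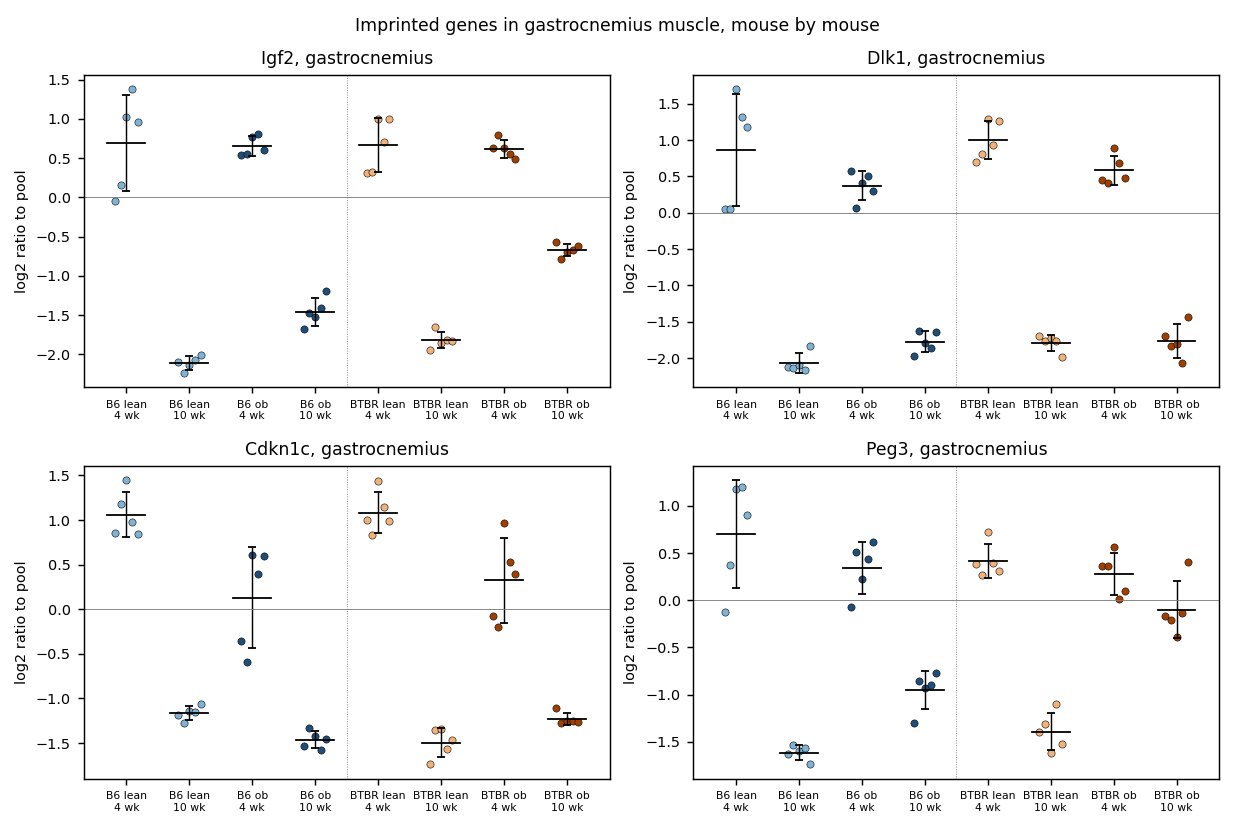
Log2 ratios to the pool of Igf2, Dlk1, Cdkn1c and Peg3 in gastrocnemius, 1 point per mouse, with the mean (bar) and SD (whiskers) of 5 mice per group; B6 groups stand left of the dotted line and BTBR groups right of it. Igf2, Dlk1 and Cdkn1c show no overlap between 4 and 10 weeks in any class, and Peg3 of BTBR ob mice stays near 0 at both ages.

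In ob mice several of these genes fell less in gastrocnemius than in lean mice of the same strain. Tested as the age effect in ob minus the age effect in lean, 6 of 18 values were called higher and 0 lower, where 4.69% of all genes were higher and 2.88% lower in B6, and 2.48% higher and 3.34% lower in BTBR. Mest, an enzyme of the hydrolase family known from growing fat and muscle, had log2 ratios of 0.67, 0.77, 1.05, 0.06 and 0.11 in B6 lean mice at 4 weeks and -1.46, -1.30, -1.71, -1.42 and -0.95 at 10 weeks. In B6 ob mice the values were -0.28, -0.28, -0.22, 0.17 and 0.10 at 4 weeks and -0.27, -0.89, -0.25, -0.08 and 0.01 at 10 weeks. The lean groups did not overlap, whereas the ob groups did. Mest changed with age by -1.90 ± 0.20 in B6 lean mice and by -0.19 ± 0.20 in B6 ob mice, a difference between these effects of 1.71 ± 0.29 (limma adjusted p = 3.4e-04). In BTBR mice, where Mest changed by -1.64 and -0.99, that difference was 0.65 ± 0.29 and did not pass (limma adjusted p = 0.21). Of the 3 Mest probes 1 did not share the B6 pattern, with age effects of 0.30 in lean and 0.23 in ob mice.

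Peg3 showed the same in BTBR mice and in both muscles. In gastrocnemius its log2 ratios in BTBR lean mice were 0.27, 0.31, 0.38, 0.40 and 0.72 at 4 weeks and -1.32, -1.40, -1.52, -1.10 and -1.62 at 10 weeks. In BTBR ob mice they were 0.01, 0.36, 0.57, 0.10 and 0.36 at 4 weeks and -0.17, 0.41, -0.39, -0.14 and -0.21 at 10 weeks. Ob mice of 10 weeks thus lay above all lean mice of 10 weeks, and 1 of them, mouse 18, lay within the range of the 4-week mice. Peg3 changed with age by -1.81 ± 0.18 in BTBR lean mice and by -0.38 ± 0.18 in BTBR ob mice (limma adjusted p = 0.095). The difference of the effects was 1.43 ± 0.25 (limma adjusted p = 2.5e-04). In soleus of BTBR mice, where 2.01% of all genes were called higher and 2.80% lower in this test, Peg3 was the only member called, with -1.27 ± 0.18 in lean and 0.08 ± 0.18 in ob mice, differing by 1.34 ± 0.25 (limma adjusted p = 7.0e-04). For B6 the difference was 1.02 ± 0.25 in gastrocnemius (limma adjusted p = 9.2e-03), but only 0.45 after quantile normalization (limma adjusted p = 0.333), and 0.55 ± 0.25 in soleus (limma adjusted p = 0.23).

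**Figure D3:**
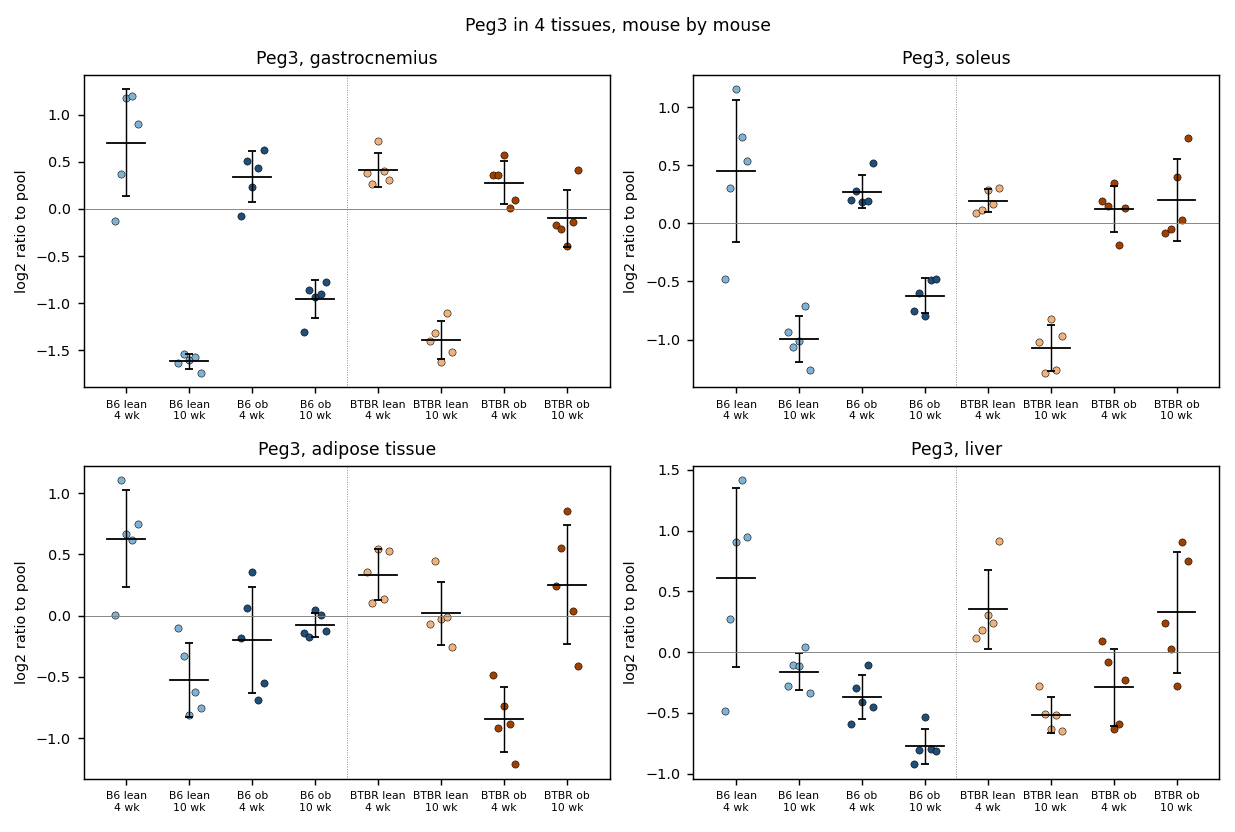
Log2 ratios to the pool of Peg3 in gastrocnemius, soleus, adipose tissue and liver, 1 point per mouse, with the mean (bar) and SD (whiskers) of 5 mice per group. In both muscles of BTBR mice the lean groups part by age and the ob groups overlap, and in adipose tissue of BTBR ob mice the 10-week values lie above the 4-week values.

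At 10 weeks ob mice had higher ratios than lean mice for several members in gastrocnemius. Of 9 members, 5 were called higher in B6 ob mice (8.18% over all genes) and 4 in BTBR ob mice (11.9% over all genes), with 0 lower in either strain (8.06% and 13.3% over all genes). With both ages together 9 of 36 obesity effects were higher and 3 lower in gastrocnemius (7.44% and 7.98% over all genes), 3 and 0 in soleus (7.28% and 6.82%), and 0 and 1 in hypothalamus (2.18% and 2.34%). The BTBR call of Plagl1, 0.40 ± 0.15, was lost without any 1 of 5 mice and came to 0.30 without ob mouse 18 (limma adjusted p = 0.165). Igf2 of BTBR mice at 10 weeks had log2 ratios of -1.65, -1.94, -1.83, -1.82 and -1.86 in lean and -0.57, -0.62, -0.70, -0.67 and -0.78 in ob animals. The groups stood apart by more than their spread, with a difference of 1.15 ± 0.16 (limma adjusted p = 1.4e-06), and the age effects of Igf2 in ob and lean mice differed by 1.20 ± 0.23 (limma adjusted p = 9.2e-04). In B6 the obesity effect of Igf2 was 0.65 ± 0.16 (limma adjusted p = 4.2e-03). It fell to 0.16 under quantile normalization of the arrays (limma adjusted p = 0.648). Peg3 was higher in ob mice by 1.29 ± 0.18 in BTBR (limma adjusted p = 6.4e-07) and by 0.66 ± 0.18 in B6, the latter 0.28 under quantile normalization (limma adjusted p = 0.314). Mest was higher by 1.07 ± 0.20 in B6 ob mice (limma adjusted p = 2.0e-04), and its value in BTBR was 0.19 ± 0.20. At 4 weeks Mest was called lower in B6 ob mice (mean -0.10, against 0.53 in lean mice), so that its smaller fall came partly from a lower start. This 4-week call was lost without any 1 of 6 mice (-0.51 without lean mouse 35, limma adjusted p = 0.111). Ndn was higher by 0.56 ± 0.13 in B6 ob mice (0.37 under quantile normalization, limma adjusted p = 8.3e-03) and had a value of -0.12 ± 0.13 in BTBR, a strain difference of -0.68 ± 0.18 (limma adjusted p = 0.014) that did not pass under quantile normalization (-0.40, limma adjusted p = 0.0915).

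At 4 weeks Cdkn1c was also called lower in ob mice in the same muscle. Ob mice had lower log2 ratios than lean mice in B6, by 0.93 (limma adjusted p = 6.8e-04; 6.84% of all genes higher and 7.55% lower), with -0.59, 0.59, -0.36, 0.40 and 0.61 in ob and 0.98, 0.84, 1.45, 1.18 and 0.85 in lean animals. These groups did not overlap. In BTBR the value was -0.76 ± 0.18 (limma adjusted p = 0.011), with 1 ob mouse (0.97) among the lean ones (0.83 to 1.44), and this was not called after quantile normalization (-0.71, limma adjusted p = 0.0878) or with only its 2 groups in the fit (limma adjusted p = 0.129). In 1 fit of all tissues the values of these obesity effects were -0.93 and -0.75 with the mouse as a block and neither passed (limma adjusted p = 0.0527 and 0.219), and without the block neither passed either (limma adjusted p = 0.0514 and 0.215). The obesity effect on Cdkn1c at 10 weeks was not called in either strain. Its 10-week means were -1.16 in lean and -1.46 in ob B6 mice, and -1.50 in lean and -1.23 in ob BTBR mice. The difference of the age effects of Cdkn1c in BTBR was 1.02 ± 0.26 in the fit of the tissue alone (limma adjusted p = 0.012) and did not pass in the fit of all tissues (1.03 with the block and 1.02 without it, limma adjusted p = 0.275 and 0.278). That fit shares 1 estimate of the spread of a gene among the tissues, and it includes a Cdkn1c value at the limit of the deposited scale, 6.64 in hypothalamus of B6 ob 4-week mouse 7.

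Markers of other cells of muscle moved with the same comparisons. Of 8 markers of immature muscle and muscle stem cells, 7, 5, 7 and 3 were lower at 10 weeks in gastrocnemius of B6 lean, B6 ob, BTBR lean and BTBR ob mice, with 0 higher. At 10 weeks 5 of the 8 were higher in ob than in lean mice of either strain, and 1 was lower in BTBR. Myh3, the embryonic myosin heavy chain, changed with age by -2.13, -1.27 and -1.69 in the first 3 classes and had a value of 0.17 in BTBR ob mice. In ob mice of 10 weeks Myh3 was higher by 2.23 in B6 and 2.54 in BTBR. Of 13 fibroblast and matrix markers, 12, 8, 12 and 13 were lower with age, and 1 of the 52 age effects was higher. In ob mice of 10 weeks 10 of the 13 matrix markers were higher in B6, whereas 7 were lower and 1 higher in BTBR. The mean ratio of the matrix list per mouse at 10 weeks ran from -1.03 to -0.81 in lean BTBR mice and from -1.77 to -0.998 in ob BTBR mice. Mitosis genes, 19 in number, gave 16, 0, 16 and 7 lower and 1, 0, 2 and 0 higher with age. For the age effect in ob minus that in lean mice, higher calls were made for 4 of 8 immature markers in each strain, for 11 of 13 matrix markers in B6 and 0 in BTBR, and for 9 of 19 mitosis genes in B6 and 0 in BTBR. Slow muscle markers, 6 in number, were higher in ob mice of 10 weeks for all 6 in B6 and for 5 in BTBR, with 0 lower. The mean ratio of that list per mouse ran from -1.34 to -0.75 in lean and from 0.16 to 0.39 in ob B6 mice, and from -0.48 to -0.08 in lean and 0.27 to 0.72 in ob BTBR mice. Lean and ob mice did not overlap on the slow muscle list in either strain. With age 5 slow markers were lower in B6 lean mice and 6 higher in BTBR ob mice. Of 7 adipocyte markers, 3 were higher in ob B6 mice of 10 weeks and 1 in ob BTBR mice, and the list's mean ratio in B6 was -0.20 to -0.09 in lean and 0.04 to 0.52 in ob animals. In soleus 11, 8, 12 and 12 matrix markers, 6, 3, 6 and 4 immature markers and 15, 1, 18 and 15 mitosis genes were lower with age. Higher age calls in soleus numbered 0 of 52 for the matrix list, 3 of 32 for the immature list and 1 of 76 for mitosis genes. The part of these cells in the results on the imprinted genes was not tested.

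In islets the obesity effect on 1 member, Dlk1, ran in opposite directions in the strains. Dlk1, which in the pancreas is known from endocrine cells, was lower in ob than in lean B6 mice and higher in ob than in lean BTBR mice. Its log2 ratios in BTBR mice of 10 weeks were -2.83, -2.85, -3.02, -3.42 and -3.04 in lean and 1.26, 1.71, 1.18, 1.07 and 1.24 in ob animals. In B6 mice of 10 weeks they were 0.28, -0.01, 0.00, -0.18 and -0.08 in lean and -2.05, -1.90, -2.06, -1.70 and -1.78 in ob animals. The ob group thus lay above the lean group in BTBR and below it in B6, with no overlap in either. The obesity effect on Dlk1 was 4.32 ± 0.23 in BTBR (limma adjusted p = 2.8e-17) and -1.90 ± 0.23 in B6 (limma adjusted p = 2.5e-08).

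The split was smaller at 4 weeks. Dlk1 then differed between ob and lean mice by -1.05 ± 0.23 in B6 (limma adjusted p = 3.1e-04) and by 0.74 ± 0.23 in BTBR (limma adjusted p = 8.4e-03), the latter 0.43 and not called under quantile normalization (limma adjusted p = 0.165). The strain difference in this effect was 1.79 ± 0.32 (limma adjusted p = 2.9e-04). With age Dlk1 fell in islets of B6 lean (-0.84 ± 0.23, limma adjusted p = 0.010, and 0.0699 with only the 2 groups in the fit), B6 ob (-1.69 ± 0.23) and BTBR lean mice (-1.199 ± 0.23), as in muscle. In BTBR ob mice it rose, from -1.40, -1.35, -0.81, -1.35 and -0.56 at 4 weeks to the 10-week values above, by 2.38 ± 0.23 (limma adjusted p = 2.2e-10). The age effects of ob and lean BTBR mice differed by 3.58 ± 0.32 (limma adjusted p = 1.8e-10). Meg3 and Mirg, noncoding RNAs of the same imprinted region, did not pass in that class: their age effects in islets of BTBR ob mice were -0.25 and -0.39, and their obesity effects at 10 weeks -0.08 and 0.23.

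**Figure D4:**
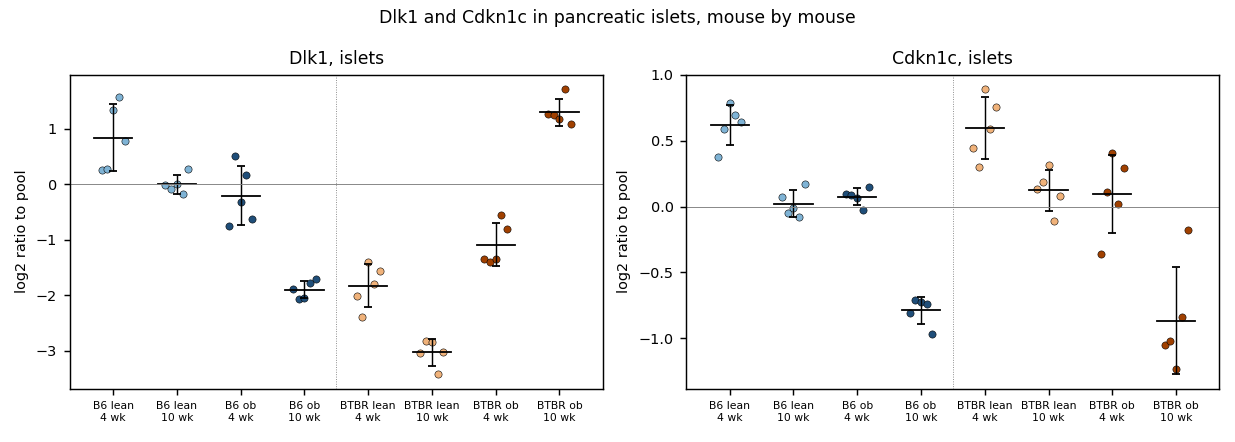
Log2 ratios to the pool of Dlk1 and Cdkn1c in pancreatic islets, 1 point per mouse, with the mean (bar) and SD (whiskers) of 5 mice per group. Dlk1 of BTBR ob mice lies between 1.07 and 1.71 at 10 weeks and below -0.5 at 4 weeks, and Cdkn1c is lower in ob than in lean mice of both strains.

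Cdkn1c, Peg3 and Grb10 were lower in ob islets of both strains, and Igf2 was higher in 3 of 4 comparisons. Over 36 obesity effects in islets, 17 were lower and 6 higher, against 21.8% lower and 24.2% higher over all genes. Cdkn1c had log2 ratios of 0.17, 0.07, -0.01, -0.08 and -0.05 in lean and -0.72, -0.81, -0.71, -0.97 and -0.74 in ob B6 mice of 10 weeks. The difference was -0.81 ± 0.13 (limma adjusted p = 7.8e-06), and in BTBR it was -0.99 ± 0.13 (limma adjusted p = 1.5e-07), in both without overlap. Peg3 was lower in ob islets by 0.60 to 0.66 in all 4 comparisons (each ± 0.12, no overlap). Grb10 was lower by 0.25 to 0.61 in the same 4 (each ± 0.06, no overlap), but its probe 10028673998 had values of 0.14 and 0.31 in B6 at 4 and 10 weeks. Mest was lower in B6 ob mice of 10 weeks by 1.30 (limma adjusted p = 2.3e-09) and had a value of -0.24 ± 0.14 in BTBR, a strain difference of 1.06 ± 0.20 (limma adjusted p = 6.1e-05) that came to 0.20 for the probe of Mest with the smallest change (limma adjusted p = 0.383). The higher calls were 3 for Igf2, 2 for Dlk1 and 1 for Ndn (0.29 ± 0.09 in BTBR at 10 weeks, limma adjusted p = 7.5e-03). Igf2 was higher in ob islets by 0.42 ± 0.12 in B6 at 4 weeks (limma adjusted p = 3.2e-03), by 0.34 ± 0.12 in BTBR at 4 weeks (limma adjusted p = 0.017) and by 0.31 ± 0.12 in BTBR at 10 weeks (limma adjusted p = 0.025), with overlapping groups in each. In the fit of all tissues with the mouse as a block none of these 3 passed (limma adjusted p = 0.102, 0.181 and 0.241), nor did they without the block (0.106, 0.218 and 0.243), and the last was lost without any 1 of 3 mice (0.25 without lean mouse 32, limma adjusted p = 0.0897). At 10 weeks 16.0% of all genes had a higher and 17.5% a lower strain difference in islets, and members gave 4 higher and 0 lower: Dlk1, Mest, Ndn (0.50 ± 0.13, limma adjusted p = 3.1e-03) and Igf2, at 0.45 ± 0.16, which was lost without any 1 of 6 mice (0.39 without BTBR lean mouse 32, limma adjusted p = 0.0693).

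Markers of other cells moved in islets too. Of 13 acinar markers, from the exocrine tissue around the islets, all 13 were lower in ob B6 mice at either age, and 8 and 12 were lower in ob BTBR mice at 4 and 10 weeks. The matrix list was lower in ob islets (12 and 8 of 13 in B6 at 4 and 10 weeks, 10 in BTBR at 4 weeks), except in BTBR at 10 weeks with 8 higher and 2 lower. The strain difference at 10 weeks was higher for 10 of 13 matrix markers and for 5 of 13 acinar markers. Beta cell markers were lower in 6 of 8 and higher in 1 of 8 in ob BTBR mice of 10 weeks. The mean ratio of the matrix list per mouse was -1.06 to -0.35 in lean and -0.56 to -0.10 in ob BTBR mice of 10 weeks, and -0.77 to 0.13 in lean and -1.40 to -0.95 in ob B6 mice. The other endocrine markers, 5 in number, were lower in ob mice for 2 and 5 in B6 and for 4 and 3 in BTBR at 4 and 10 weeks, and their mean ratio at 10 weeks was 0.13 to 0.41 in lean and -1.39 to -1.05 in ob B6 mice. Glia markers were higher in ob mice of 10 weeks for 3 of 5 in either strain. Their mean ratio in BTBR mice was -0.78 to -0.62 in lean and 0.37 to 0.60 in ob animals at 10 weeks, and -0.60 to -0.44 in ob animals at 4 weeks. Ob mice of 10 weeks thus stood above the other BTBR groups on the glia list, as they did for Dlk1. In B6 mice of 10 weeks the glia list was also higher in ob animals (-0.36 to -0.14 in lean and 0.03 to 0.23 in ob), whereas Dlk1 was lower in them. Mitosis genes were higher in ob B6 mice (17 and 16 of 19 at 4 and 10 weeks), and 8 were lower in ob BTBR mice of 10 weeks. With age 18, 19, 18 and 18 mitosis genes and 11, 11, 12 and 3 matrix markers were lower in islets of B6 lean, B6 ob, BTBR lean and BTBR ob mice. The part of these cells in the results on Dlk1 and the other members was not tested.

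In adipose tissue Mest set ob apart from lean mice in B6. Its log2 ratios at 10 weeks were -2.37, -2.03, -2.49, -2.0005 and -2.48 in lean and 0.68, 0.72, 0.86, 0.79 and 0.75 in ob B6 mice. At 4 weeks the values were -1.07, -1.97, -1.63, -2.22 and -1.78 in lean and 0.24, -0.36, 0.46, 0.59 and 0.58 in ob mice. Neither pair of groups overlapped. The obesity effects were 3.04 ± 0.21 at 10 weeks (limma adjusted p = 9.8e-14) and 2.04 ± 0.21 at 4 weeks (limma adjusted p = 1.3e-09), an 8.20-fold and a 4.10-fold higher ratio. In BTBR mice they were 0.78 ± 0.21 at 4 weeks (limma adjusted p = 3.5e-03) and 0.48 ± 0.21 at 10 weeks, which did not pass (limma adjusted p = 0.059). The strain difference was -2.56 ± 0.29 at 10 weeks (limma adjusted p = 1.9e-07), where 6.01% of all genes were called lower and 6.91% higher. At 4 weeks it was -1.25 ± 0.29 (limma adjusted p = 0.021), and without B6 lean mouse 47 it was -1.13 and not called (limma adjusted p = 0.061).

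The mean of Mest averages probes that behave differently. In ob minus lean B6 mice of 10 weeks, probe 10018192566 gave 4.49 and probe 10028676248 gave 4.41, whereas probe 10018181633 gave 0.21 and was not called. The first 2 of these ranged from -3.79 to -2.93 and from -3.66 to -3.00 in lean B6 mice of 10 weeks, and from 1.02 to 1.35 and from 0.94 to 1.24 in ob mice. Probe 10018181633 stayed between -0.22 and 0.28 over the same animals. The same probe of Mest hardly moved with age in gastrocnemius of B6 lean mice (0.30, against -3.10 and -2.90 for the others). The gene spans chr6:30733506-30748466 and has several starts, and the place of the probes in it is not given in the sources used here.

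**Figure D5:**
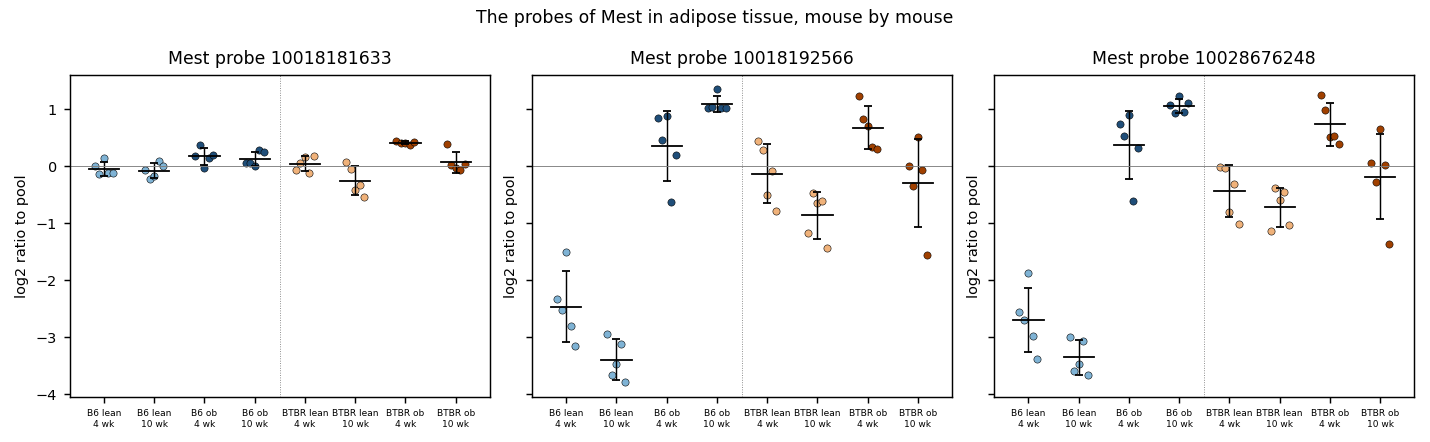
Log2 ratios to the pool of the 3 Mest probes in adipose tissue, 1 point per mouse, with the mean (bar) and SD (whiskers) of 5 mice per group and a shared vertical axis. The right-hand and middle probes separate lean from ob B6 mice by about 4 log2 units at 10 weeks (4.41 and 4.49), and the left-hand probe does not.

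Igf2 went the other way from Mest in fat. Its log2 ratios in BTBR mice of 10 weeks were 0.00, 0.11, 0.08, 0.33 and 0.18 in lean and -1.07, -1.14, -0.91, -0.89 and -1.35 in ob animals. Igf2 was lower in ob mice in all 4 comparisons without overlap, by 0.59 and 0.76 in B6 at 4 and 10 weeks and by 0.54 and 1.21 in BTBR (each ± 0.11; limma adjusted p = 8.3e-05, 1.5e-06, 3.2e-04 and 1.2e-10). Over the 36 obesity effects in adipose tissue, 14 were lower and 5 higher, against 17.1% lower and 20.6% higher over all genes. Cdkn1c was lower in ob B6 mice of 10 weeks by 0.75 (limma adjusted p = 1.4e-04; 0.0506 in the fit of all tissues with the mouse as a block and 0.0493 without it) and in ob BTBR mice of 4 weeks by 0.93 (limma adjusted p = 1.3e-05). Dlk1, whose loss is known to let fat cells mature, was lower in ob B6 mice of 4 weeks (-0.999 ± 0.24, limma adjusted p = 1.3e-03) and in ob BTBR mice of 10 weeks (-1.502 ± 0.24, limma adjusted p = 5.0e-06). With age Dlk1 fell by 1.75 in B6 lean, 1.01 in B6 ob and 1.43 in BTBR ob mice, and its value in BTBR lean mice was -0.41 ± 0.24 (limma adjusted p = 0.26).

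Peg3 was lower in fat of ob mice at 4 weeks and was not called at 10 weeks. In BTBR mice of 4 weeks its log2 ratios were 0.53, 0.36, 0.14, 0.54 and 0.10 in lean and -1.21, -0.91, -0.74, -0.88 and -0.48 in ob animals, a difference of -1.18 ± 0.20 (limma adjusted p = 2.6e-05). At 10 weeks lean mice had -0.25, -0.07, -0.01, 0.45 and -0.03 and ob mice -0.41, 0.85, 0.24, 0.03 and 0.55, and these groups overlapped. Within BTBR ob mice Peg3 rose with age by 1.10 ± 0.20 (limma adjusted p = 3.4e-05), and within B6 lean mice it fell by 1.15 (limma adjusted p = 1.1e-04). The age effects of ob and lean mice differed by 1.27 ± 0.29 in B6 (limma adjusted p = 3.2e-03) and by 1.41 ± 0.29 in BTBR (limma adjusted p = 4.3e-04). Beside these values, 5 to 7 of 7 macrophage markers were higher in ob fat in each comparison. Adipocyte markers were lower in 2 to 5 of 7, and Lep, the leptin gene, was the 1 marker of that list that was higher (2.25 to 3.31). The matrix list gave 4, 6, 0 and 11 of 13 higher and 1, 2, 2 and 0 lower in B6 at 4 and 10 weeks and BTBR at 4 and 10 weeks. With age 9, 6, 10 and 6 matrix markers were lower in fat and 5, 7, 2 and 7 macrophage markers higher in B6 lean, B6 ob, BTBR lean and BTBR ob mice. Over these 4 classes 5 of 52 matrix age effects in fat were higher and 31 lower, and 0 macrophage age effects were lower. The part of these cells in the results was not tested.

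In liver 16 of 36 age effects of the members were lower and 2 higher, while 5 of 36 obesity effects were lower and 2 higher. Over all genes 15.7% of obesity effects in liver were lower and 20.2% higher. Mest fell by 0.79 in lean B6, 0.80 in lean BTBR and 0.64 in ob BTBR mice (each ± 0.14), and its fall of 0.46 in B6 ob mice was lost without mouse 7 (-0.41, limma adjusted p = 0.0559). Its probe 10018181633 again did not fall, with values of 0.15 in B6 lean and 0.06 in BTBR lean liver. Grb10 fell by 0.56, 0.70, 0.55 and 0.63 in the 4 classes (each ± 0.13), carried by probe 10018189292 (-1.12, -1.37, -0.96 and -1.30). Peg3 in BTBR mice of 10 weeks had log2 ratios of -0.65, -0.51, -0.28, -0.63 and -0.52 in lean and 0.24, 0.03, -0.28, 0.91 and 0.75 in ob animals. Apart from 1 ob mouse at the level of the highest lean mouse, the ob values were above the lean ones. The obesity effect on Peg3 at 10 weeks was 0.85 ± 0.23 in BTBR (limma adjusted p = 2.1e-03) and -0.61 ± 0.23 in B6 (limma adjusted p = 0.028), a strain difference of 1.46 ± 0.32 (limma adjusted p = 8.1e-04; 12.8% of all genes higher and 12.8% lower). The B6 value was lost without any 1 of 3 mice, and came to -0.56 without lean mouse 24. The age effects of Peg3 in ob and lean BTBR mice differed by 1.49 ± 0.32 (limma adjusted p = 2.2e-03). At 4 weeks its mean was lower in ob than in lean liver of both strains (-0.37 against 0.61 in B6 and -0.29 against 0.35 in BTBR). The BTBR call at 4 weeks was lost without any 1 of 6 mice (-0.50 without lean mouse 45, limma adjusted p = 0.123). Cdkn1c was higher in ob BTBR mice of 10 weeks by 1.06 ± 0.21 without overlap (limma adjusted p = 8.4e-05). Igf2 in liver, which is known to lose most of its expression soon after birth, changed by -0.89 ± 0.30 in BTBR ob mice over all animals and by -0.41 without 4-week mouse 14 (limma adjusted p = 0.158), and the call was lost without any 1 of 3 mice. The 1 age call of Peg10, 0.91 ± 0.32 in B6 ob mice, was lost without any 1 of 5 mice and came to 0.31 without 10-week mouse 1752 (limma adjusted p = 0.174). Matrix markers were lower with age in liver for 10, 9, 10 and 10 of 13, and mitosis genes for 18, 9, 17 and 10 of 19, in B6 lean, B6 ob, BTBR lean and BTBR ob mice. The mean ratio of the matrix list per mouse was 0.11 to 0.78 at 4 weeks and -0.76 to -0.37 at 10 weeks in B6 lean mice, and 0.01 to 0.499 and -1.15 to -0.72 in BTBR ob mice. That of the mitosis list was -0.51 to 1.59 and -1.34 to -0.96 in B6 lean mice. Their part in the age effects of the members was not tested.

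The hypothalamus gave the fewest calls. Of 36 age effects 3 were called, all in BTBR ob mice, where 6.91% of all genes were lower and 6.34% higher. Igf2 had the largest of them, -1.40 ± 0.28 (limma adjusted p = 7.7e-04). Its ages overlapped, with 0.07 to 0.71 at 4 weeks and -1.49 to 0.49 at 10 weeks. Igf2 in the brain is known to come mainly from the meninges and choroid plexus. Peg3, strongly expressed in the hypothalamus, fell by 0.36 without overlap (limma adjusted p = 1.2e-03; 0.263 in the fit of all tissues with the mouse as a block and 0.266 without it). Grb10 was the third and was lost without either of 2 mice (-0.12 without 10-week mouse 18, limma adjusted p = 0.0755). For Cdkn1c the value at the limit of the scale, 6.64 in B6 ob 4-week mouse 7, enters the error of every comparison in this tissue. The SD of its group was 2.91. In BTBR lean mice Cdkn1c ran from -0.11 to 0.56 at 4 weeks and from -0.55 to -0.22 at 10 weeks, without overlap, and was not called. In lean mice, B6 and BTBR, Ndn, which is lost in the Prader-Willi syndrome, had age effects of 0.10 and -0.03 (each ± 0.09) and Dlk1 of 0.12 and 0.03 (each ± 0.16), none of them called. Matrix markers were lower with age for 4, 3, 6 and 5 of 13 and glia markers for 3, 2, 3 and 4 of 5 in B6 lean, B6 ob, BTBR lean and BTBR ob mice. In BTBR ob mice the mean ratio of the matrix list was 0.22 to 0.35 at 4 weeks and -0.67 to 0.13 at 10 weeks, and that of the glia list 0.11 to 0.28 and -0.49 to -0.16. Their part in the 3 calls was not tested.

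Set against each other in 1 fit of all 240 arrays, with the mouse as a block, the age effect differed among tissues for 8 of the 9 members, where 80.2% of all genes passed the same F test. Averaged over the 4 classes, Igf2 changed by -2.18 in gastrocnemius, -2.52 in soleus, -0.78 in hypothalamus, -0.67 in adipose tissue, -0.58 in liver and -0.34 in islets (each ± 0.11). Dlk1 changed by -2.55 and -2.51 in the muscles and by -1.15 in adipose tissue (each ± 0.10), and its averages in the other 3 tissues lay between -0.33 and 0.11. The islet average of Dlk1, -0.33, does not stand for little change. It joins the falls in B6 lean, B6 ob and BTBR lean mice with the rise in BTBR ob mice given above. Peg10 did not pass (limma adjusted p = 0.132).

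Over the 24 age effects the members ran in parallel to different degrees. The correlation of each member with the median of the others was 0.850 for Ndn, 0.831 for Igf2, 0.808 for Mest, 0.733 for Cdkn1c, 0.724 for Dlk1, 0.602 for Peg3, 0.545 for Grb10, 0.496 for Plagl1 and 0.0313 for Peg10. These 24 values share mice and groups and are no independent points. Among all other genes the pattern most like the median of the members was that of Mymk, the fusion protein of muscle precursors (r = 0.925 over 24 effects), followed by Mirg (0.891), Adamts20 (0.890), Armcx2 (0.885), Dok5 (0.884) and Mamstr (0.883). Mirg, a noncoding RNA read from the Dlk1 region, fell with age in gastrocnemius by 2.73, 1.21, 1.62 and 0.91.

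More of the other imprinted genes were lower than higher with age in the muscles. Of 49 measured, 19, 10, 21 and 20 were lower and 9, 7, 9 and 5 higher with age in gastrocnemius, with medians of -0.13, -0.03, -0.09 and -0.07, while the 9 members had medians of -1.90, -0.39, -1.64 and -0.93 and all genes of 0.04, 0.02, 0.02 and 0.01. Over the 4 classes 70 of 196 effects (35.7%) were lower and 30 (15.3%) higher, against 15.5% lower and 17.7% higher over all genes in gastrocnemius, and in soleus 65 (33.2%) were lower and 19 (9.69%) higher, against 11.3% and 12.2%. In soleus the members had medians of -1.45, -0.76, -1.27 and -1.16. The other imprinted genes called most often in the 24 age comparisons were Sgce (15 lower, 2 higher), Cd81 (12 and 3), Mcts2 (12 and 1), Meg3 (11 and 2), Peg12 (12 and 0) and Mirg (12 and 0). Of 22 genes of the IGF axis in gastrocnemius, 11, 7, 8 and 8 were lower and 2 in each class higher. Igfbp7, an IGF-binding protein of vessel walls, was lower in 21 of 24 age comparisons and higher in 0. Igf2bp2, which binds Igf2 messenger RNA, was lower in 14 and higher in 3, while Ghr, the growth hormone receptor, was higher in 11 and lower in 1. Among 16 genes known to be high in growing tissues, 20 of 64 age effects in gastrocnemius (31.2%) were lower and 12 (18.8%) higher, against 15.5% and 17.7% over all genes. Gpc3, a protein of the cell surface and the gene of that list called most often, was lower in 17 of 24 age comparisons and higher in 1.

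Few strain differences in ageing passed the test. Of 54 strain differences in the age effect 1 was called, Mest in islets (-0.76 ± 0.20, limma adjusted p = 0.037), where 0.421% of effects over all genes were lower and 0.331% higher. That call was lost without any 1 of 13 mice, and came to -0.69 without B6 lean 4-week mouse 34 (limma adjusted p = 0.0693). Over the obesity effects of all tissues, 25 of 216 were higher and 40 lower, against 13.6% and 11.9% over all genes. Of 108 strain differences in the obesity effect, 8 were higher and 7 lower (3.89% and 4.36% over all genes), and of 108 differences between the age effects of ob and lean mice, 13 were higher and 9 lower (4.65% and 4.42%).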

How the data were processed

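The authors deposited, for each two-colour array, a log10 ratio of a mouse's cRNA to a pool of its strain and tissue; per the labels, RNA was purified, amplified once to cRNA and coupled to Cy3 or Cy5. How the ratios were normalized and with which software is not stated by the labels. Array medians of the deposited log10 ratios lay between -0.034 and 0.033, and values stopped at -2 and 2 (0.008% of values, 1 of them of a member). Ratios were rescaled to log2, and the probes of a gene were averaged. Of 39556 probes, 23283 (58.9%) had 1 gene symbol; 16574 matched a current symbol, 6594 a synonym and 115 kept the older name.

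The 40 arrays of a tissue (8 groups, 13 comparisons) went into 1 limma fit (limma 3.58.1, R 4.3.3), with Benjamini-Hochberg adjustment over 19896 genes and a threshold of 0.05. Errors are the fit's SE. Groups of 5 that do not overlap have an exact 2-sided permutation p of 0.0079, the smallest that 252 arrangements allow. The age effect among tissues came from 1 fit of 240 arrays with the mouse as a random block (correlation 0.0504). The labels' mouse number was taken to mark the animal across tissues. The median r of deviations from the group mean between arrays of 1 mouse was above 0 in 15 of 15 tissue pairs, though often small (0.006 to 0.284). Other mice gave -0.088 to -0.006, but deviations from a shared mean tie these values to the first, so that they are no separate control. Compared ages and classes hold different animals. The fit was tested on simulated data. The number of arrays limits the precision, and intensities were not used here.

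The members, gene lists and tests were chosen with earlier results of these data known. All members are named; of each other list up to 6 genes called most often with age, and the 6 genes whose age effects correlate best with the members' median, are named, and genes beyond these (Myh3, Lep) were chosen after their values were seen. Promoters are RefSeq's on GRCm38.p6. Alternatives were quantile normalization, centring, array weights, each probe alone, current symbols alone, own groups alone, an adjusted p of 0.01, the mouse block and leaving out each mouse. Leaving out 3 arrays that stand apart was added after seeing the data. Figures were drawn with matplotlib 3.10.9.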

Additional observations from a re-analysis of the deposited data

Results flagged for a closer look

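Single mice were looked for in 14 gene and tissue pairs, not in all members: Igf2, Dlk1, Mest, Peg3 and Cdkn1c in gastrocnemius, Igf2, Mest and Peg3 in adipose tissue, Dlk1, Mest and Cdkn1c in islets, Peg3 and Cdkn1c in soleus and Peg3 in liver. This gave 112 sets of 5 values (8 groups for each pair). In 7 of them the gap between 1 mouse and the next took more than 0.71 of the range of the set (Dixon's rule). Chance gives about 1 in 20, so that 7 of 112 is close to the number chance alone would give. Some of the gaps are small and were flagged because the other 4 mice lay close together. In gastrocnemius at 10 weeks Dlk1 was -1.83 in B6 lean mouse 48 (others -2.17 to -2.10) and -1.98 in BTBR lean mouse 33 (others -1.77 to -1.70). Peg3 was 0.72 in gastrocnemius of BTBR lean 4-week mouse 41 (others 0.27 to 0.40), 0.52 in soleus of B6 ob 4-week mouse 14 (others 0.18 to 0.27) and 0.92 in liver of BTBR lean 4-week mouse 45 (others 0.12 to 0.30). Dlk1 in islets of BTBR ob 10-week mouse 10 was 1.71 (others 1.07 to 1.26), and Cdkn1c in gastrocnemius of BTBR ob 10-week mouse 4 was -1.11 (others -1.27 to -1.26).

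A further 38 results were differences between effects in 2 groups that passed the test (limma, adjusted over all genes). The obesity effect in BTBR minus that in B6 passed in islets for Dlk1 at 4 weeks (1.79) and, at 10 weeks, for Dlk1 (6.22), Mest (1.06), Ndn (0.50) and Igf2 (0.45). It passed in liver at 10 weeks for Peg3 (1.46). In adipose tissue it passed at 4 weeks for Mest (-1.25) and Ndn (-0.64), and at 10 weeks for Mest (-2.56), Dlk1 (-1.24), Cdkn1c (0.68) and Ndn (-0.39). In the muscles it passed at 10 weeks for Ndn in gastrocnemius (-0.68) and for Peg3 (0.90) and Igf2 (-0.88) in soleus. The strain difference in lean ageing passed for Mest in islets (-0.76).

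The age effect in ob minus that in lean mice passed in islets for Mest (-0.90), Igf2 (-0.56) and Grb10 (-0.36) in B6 and for Dlk1 in BTBR (3.58). In liver of BTBR it passed for Peg3 (1.49). In adipose tissue of B6 it passed for Peg3 (1.27), Mest (1.0001), Plagl1 (-0.61) and Ndn (-0.39), and of BTBR for Peg3 (1.41), Dlk1 (-1.02), Cdkn1c (0.86), Igf2 (-0.67) and Plagl1 (-0.51). In gastrocnemius of B6 it passed for Mest (1.71), Peg3 (1.02) and Ndn (0.83), and of BTBR for Peg3 (1.43), Igf2 (1.20) and Cdkn1c (1.02). For Peg3 in BTBR it passed in soleus (1.34) and in hypothalamus (-0.45).

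Of these 38 differences 14 were lost when some 1 mouse was left out. They were 7 between ob and lean ageing, 6 between the strains in the obesity effect and 1 between the strains in lean ageing. The calls lost without a single, particular mouse were Mest in adipose tissue at 4 weeks (-1.13 without B6 lean mouse 47, limma adjusted p = 0.061), Mest in adipose tissue of B6 for ob minus lean ageing (0.83 without B6 ob 4-week mouse 11, limma adjusted p = 0.057) and Peg3 in soleus at 10 weeks (0.77 without BTBR ob mouse 18, limma adjusted p = 0.0551). The others, each lost without any of several mice, were Cdkn1c and Ndn at 10 weeks (strain difference) and Dlk1, Ndn and Plagl1 (ob minus lean ageing, both strains for Plagl1) in adipose tissue, Igf2 and Mest in islets, Igf2 in soleus and Peg3 in hypothalamus.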

How the results depend on the processing

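The direction and the call of the muscle age effects of Igf2, Dlk1 and Cdkn1c held under every alternative run. With 1 mouse left out at a time, the members' age calls ranged from 110 to 117 (115 with all mice), the obesity calls from 62 to 70 (65), the strain differences in the obesity effect from 12 to 18 (15), those in the age effect from 0 to 1 (1), and the differences between ob and lean age effects from 19 to 28 (22). In the fit of all tissues with the mouse as a replicate block the counts were 109, 64, 17, 3 and 21. Without the block the strain differences in the age effect were 3. Array weights gave 25 strain differences in the obesity effect and 3 in the age effect. An adjusted p of 0.01 left 7, 0 and 14 of the last 3 kinds. Quantile normalization gave 13 higher and 3 lower strain differences in the obesity effect, against 8 and 7. Of the 218 calls, 49 were lost at 0.01, 33 in the fit of all tissues with the block and 33 in that fit without it, 21 with own groups alone, 18 under quantile normalization, 4 with array weights, 2 with centring, 2 without the 3 arrays that stand apart, 0 with current symbols alone and 42 without some mouse. With each probe on its own, a gene with several probes was read by its probe with the weakest evidence. By that reading 28 were lost, and in 34 the value of that probe, often near 0, had the other sign. Calls of opposite sign between probes of a gene were fewer. Over 78 comparisons they numbered 4 for Grb10, 6 for Mest, 1 for Peg10 and 0 for Peg3. The cause was not tested.

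With each probe on its own the age calls fell to 78 and the strain difference in the age effect to 0, since a gene then counts only if all its probes agree. One probe of Grb10 then had the opposite sign to the mean, in age effects of 0.0181 (adipose, B6 ob), 0.27 and 0.0127 (gastrocnemius, B6 lean and BTBR ob), 0.16 (islets, B6 ob), 0.00704 and 0.0272 (liver, B6 lean and BTBR ob) and 0.0413 and 0.0951 (soleus, B6 and BTBR lean). Grb10 obesity effects were -0.0722 and -0.071 in gastrocnemius (B6 and BTBR, 10 weeks), -0.0829 in soleus (B6, 10 weeks), and 0.31, 0.14 and 0.0555 in islets (B6 at 10 and 4 weeks, BTBR at 4 weeks), with 0.17 for ob minus lean ageing in B6 islets. One probe of Mest gave age effects of 0.30, 0.19 and 0.18 in gastrocnemius (B6 lean, BTBR lean, BTBR ob), 0.32, 0.0184 and 0.25 in islets (B6 ob, BTBR lean, BTBR ob), 0.15 and 0.0607 in liver (B6 and BTBR lean) and 0.11, 0.15, 0.0794 and 0.23 in soleus (B6 lean, B6 ob, BTBR lean, BTBR ob). Mest values were also -0.011 (adipose), -0.0655 (gastrocnemius) and 0.21 (islets) for ob minus lean ageing in B6, 0.12 and 0.15 for the adipose strain difference at 10 and 4 weeks, and 0.0952 for gastrocnemius obesity in B6 at 4 weeks. One probe of Peg10 gave -0.0465 in liver of B6 ob mice.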
